A study of Cucumis sativus with 9 samples.

Results

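The homeobox genes of cucumber were taken as all genes whose description in the deposited expression tables lists the homeobox domain (Pfam PF00046), and 48 of 24880 genes met this rule. RNA was sequenced from leaves of 3-week-old seedlings of the inbred line 9930 of the 'Chinese long' type, grown at 25 °C by day and 18 °C by night with 16 h of light and 8 h of dark. The leaves were taken after 0 h (HT0h), 3 h (HT3h) and 6 h (HT6h) at 42 °C, with 3 libraries for each time, which the study calls biological replicates (whether a library was 1 plant or a pool is not stated). The study set aside HT3h_2 and HT6h_2 as not uniform with the other libraries, so the main values come from 7 libraries (3 of HT0h, 2 of HT3h and 2 of HT6h) and were computed again over all 9. Unheated leaves of 3 h or 6 h were not sampled, and the effects of heat and of the hour cannot be told apart in any comparison with HT0h.

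The homeodomain is a DNA-binding fold of transcription factors. In the plant HD-Zip family it is followed by a leucine zipper, through which these proteins bind DNA as dimers. In Arabidopsis, class I HD-Zip genes are known from responses to water deficit, abscisic acid and light, class II genes from auxin signalling and shade, class III genes from the vascular tissue and the upper side of the leaf, and class IV genes from the epidermis, its cuticle and its hairs. Class III and IV proteins also carry a lipid-binding START domain, and class III proteins end in a MEKHLA domain. Homeobox proteins without a zipper include the WUSCHEL-related (WOX) proteins of stem cell niches. The deposited tables give no gene names, so each gene is called by its CsaV3 identifier and grouped by its listed domains only.

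By these domains, 21 members were of the HD-Zip I/II type (homeobox and leucine zipper, no START), 2 of which, CsaV3_3G007560 and CsaV3_3G002540, also list the HD-ZIP N terminus that marks class II proteins in Arabidopsis. One gene, CsaV3_7G035370, was of the HD-Zip III type and 8 were of the HD-Zip IV type (START without MEKHLA). The remaining members were 2 genes with a PHD finger, 1 gene with a DDT domain, 1 gene that lists a ribosomal protein L19 domain beside the homeobox, and 14 genes with a homeobox domain alone. The members were spread over all chromosomes, with 7, 2, 15, 4, 6, 11 and 3 genes on chromosomes 1 to 7. No 2 members lay within 50 kb of each other, and the closest pair, CsaV3_6G050410 and CsaV3_6G050540, was 85.1 kb apart. Another gene of the table overlapped 5 members, each time on the opposite strand, and those overlapping CsaV3_2G035070 and CsaV3_3G042290 were listed at 0 in all libraries. The median gene length was 1495 bases for the members and 1511 bases for all genes.

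Levels were compared in FPKM, the fragments on a gene divided by its length and by a depth term of the library. That term followed the median ratio of fragments per gene between libraries, not the number of counted fragments. The 9 libraries held between 18972139 and 22942239 fragments on genes. In HT0h leaves, 12 members averaged 10 FPKM or more, 21 averaged 1 to 10 FPKM, 9 averaged 0.1 to 1 FPKM and 6 averaged under 0.1 FPKM. The median over the members was 2.51 FPKM in HT0h leaves, and 4.77 FPKM over all genes. A single gene, CsaV3_6G045240 of the HD-Zip I/II type, held 23.8% of the summed HT0h level of the 48 members and stood 2.77-fold above the next. The median HT0h level was 9.96 FPKM in the HD-Zip IV type, 2.55 FPKM in the HD-Zip I/II type and 0.865 FPKM among genes with a homeobox domain alone.

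The 6 members averaging under 0.1 FPKM in HT0h leaves were the 6 not tested, because their mean over the 7 libraries was also below the minimum of 0.1 FPKM. They were CsaV3_5G028630, CsaV3_3G024970, CsaV3_3G039320, CsaV3_1G034050, CsaV3_6G047050 and CsaV3_6G050540, and each had at most 6 fragments in the 9 libraries together. The last 2 had 0 fragments in all 9. All 42 tested members averaged 0.1 FPKM or more in HT0h leaves, so none entered the test through its heated libraries alone. Leaf markers were at high levels in every library: all 20 chlorophyll a/b binding protein genes were detected, with summed levels of 57580 to 64751 FPKM in HT0h, 22769 to 66871 FPKM in HT3h and 10556 to 24189 FPKM in HT6h. The 1 gene with a Rubisco small chain domain had 12904 to 15395 FPKM in HT0h, 6684 to 21310 FPKM in HT3h and 10536 to 24366 FPKM in HT6h.

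**Figure D1:**
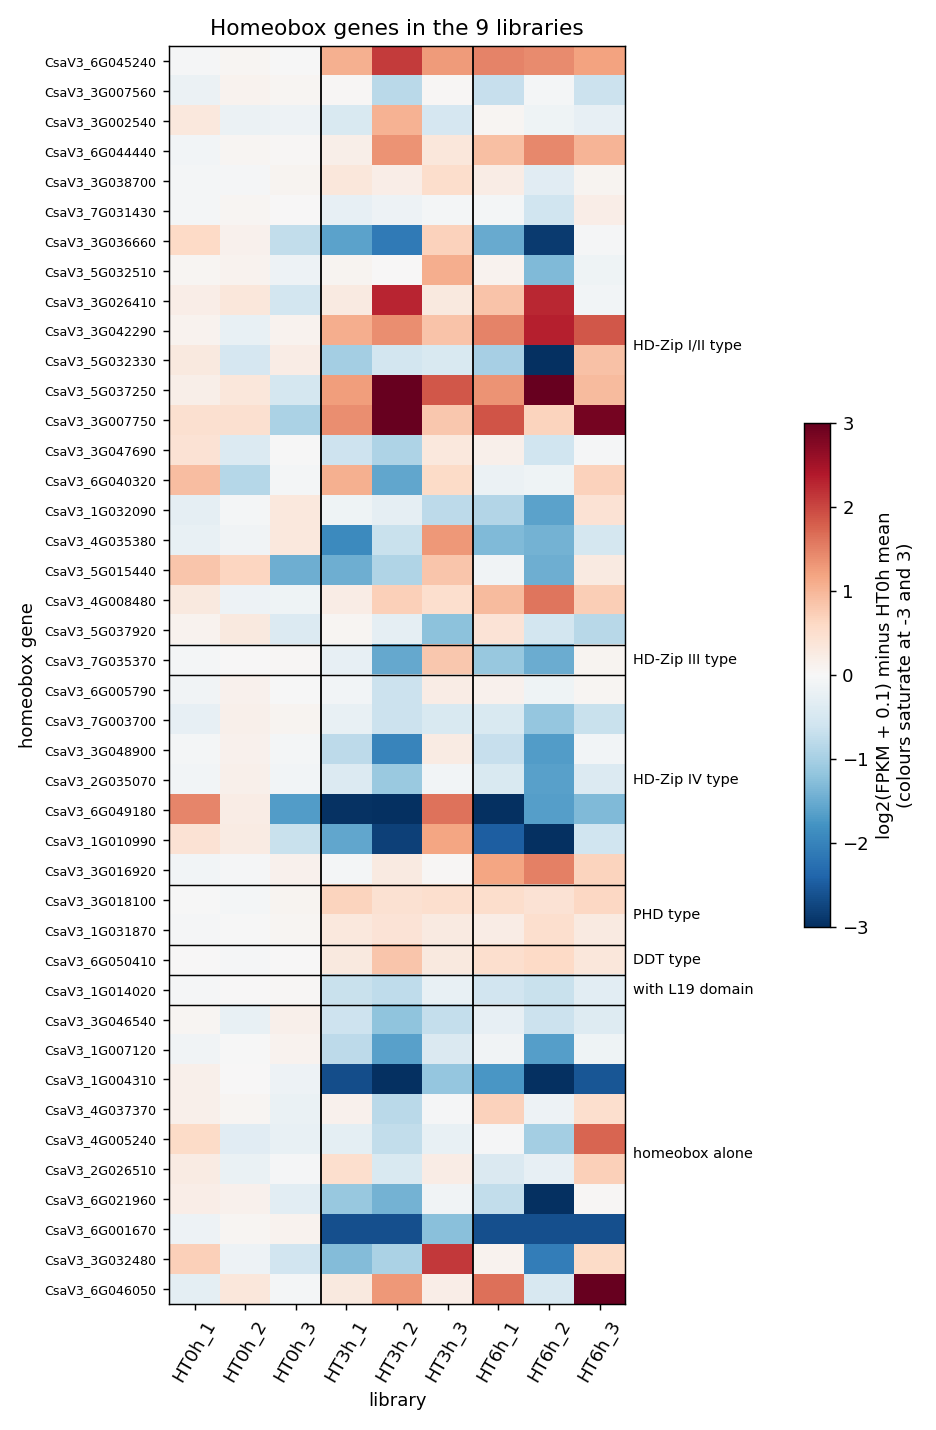
Level of each of the 42 tested homeobox genes in each of the 9 libraries, as log2(FPKM + 0.1) minus the mean of the 3 HT0h libraries of the same gene; red is above and blue below that mean, and genes are grouped by domain type and ordered by HT0h level. Within the HT3h and HT6h groups, HT3h_2 and HT6h_2 often hold the darkest colours, and CsaV3_6G045240 is red in all 6 heated libraries.

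The counts of called homeobox genes were small, and their difference from the shares of all genes was not tested. After 3 h, 4 of 42 tested members (9.52%) were called, 2 higher and 2 lower than in HT0h leaves, while 18.3% of all 19416 genes tested were called. After 6 h, 7 of 42 (16.7%) were called, 5 higher and 2 lower, against 22.3% of all genes. To be called, a gene needed an adjusted p of 0.05 or less (limma, Benjamini-Hochberg over the whole table) and a log2 fold change of at least 1 in either direction on the log2(FPKM + 0.1) scale, which understates the changes of genes with low levels. By direction, 4.76% of members were called higher and 4.76% lower after 3 h, against 10% and 8.29% of all genes, and 11.9% higher and 4.76% lower after 6 h, against 12.2% and 10% of all genes. With all 9 libraries, 5 members were called after 3 h and 6 after 6 h, where 20.4% and 22.4% of all genes were called. The counts moved with single libraries, as did those of all genes. Without HT0h_2, 2 members (4.76%) were called after 3 h, against 15.6% of all genes. Without HT6h_3, 3 members (7.14%) were called after 6 h, against 17.9% of all genes, but without HT6h_1 it was 8 of 41 (19.5%), against 17.1%, so that the order of the 2 shares after 6 h turned round.

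For about as large a share of the members as of all genes, a change of 1 or more was outside the error. The 95% interval of the log2 fold change lay wholly between -1 and 1 for 15 of 42 members after 3 h, against 36.7% of all genes, and for 14 of 42 after 6 h, against 34.8% of all genes. The median log2 fold change of the members was -0.09 after 3 h and 0.07 after 6 h, beside -0.02 and -0.00 for all genes. With 9 libraries the members' medians were -0.24 and -0.24. An adjusted p of 0.05 or less (limma), whatever the size of the change, was reached by 8 members after 3 h, where 32.3% of all genes reached it, and by 14 members after 6 h, where 37.5% did. Scaling each library to its counted fragments moved the median of all genes to 0.05 after 3 h and 0.19 after 6 h, and the share of higher genes among all those called after 6 h to 68.9%, beside 54.9% as deposited. On that scale 4 members were called after 3 h (9.52%; 3 higher, 1 lower), against 17.6% of all genes, and 9 after 6 h (21.4%; 7 higher, 2 lower), against 23.1% of all genes.

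Between the heated groups, HT6h against HT3h, 0 of 42 members were called by limma, and 0.201% of all genes were. An unadjusted p under 0.05 was found for 7 members (16.7%) and for 12.3% of all genes. Voom on the fragments of the same 7 libraries called 0 members, against 0.572% of all genes. Limma with array weights over all 9 libraries called 1 member (2.38%), close to the 2.8% of all genes.

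**Figure D2:**
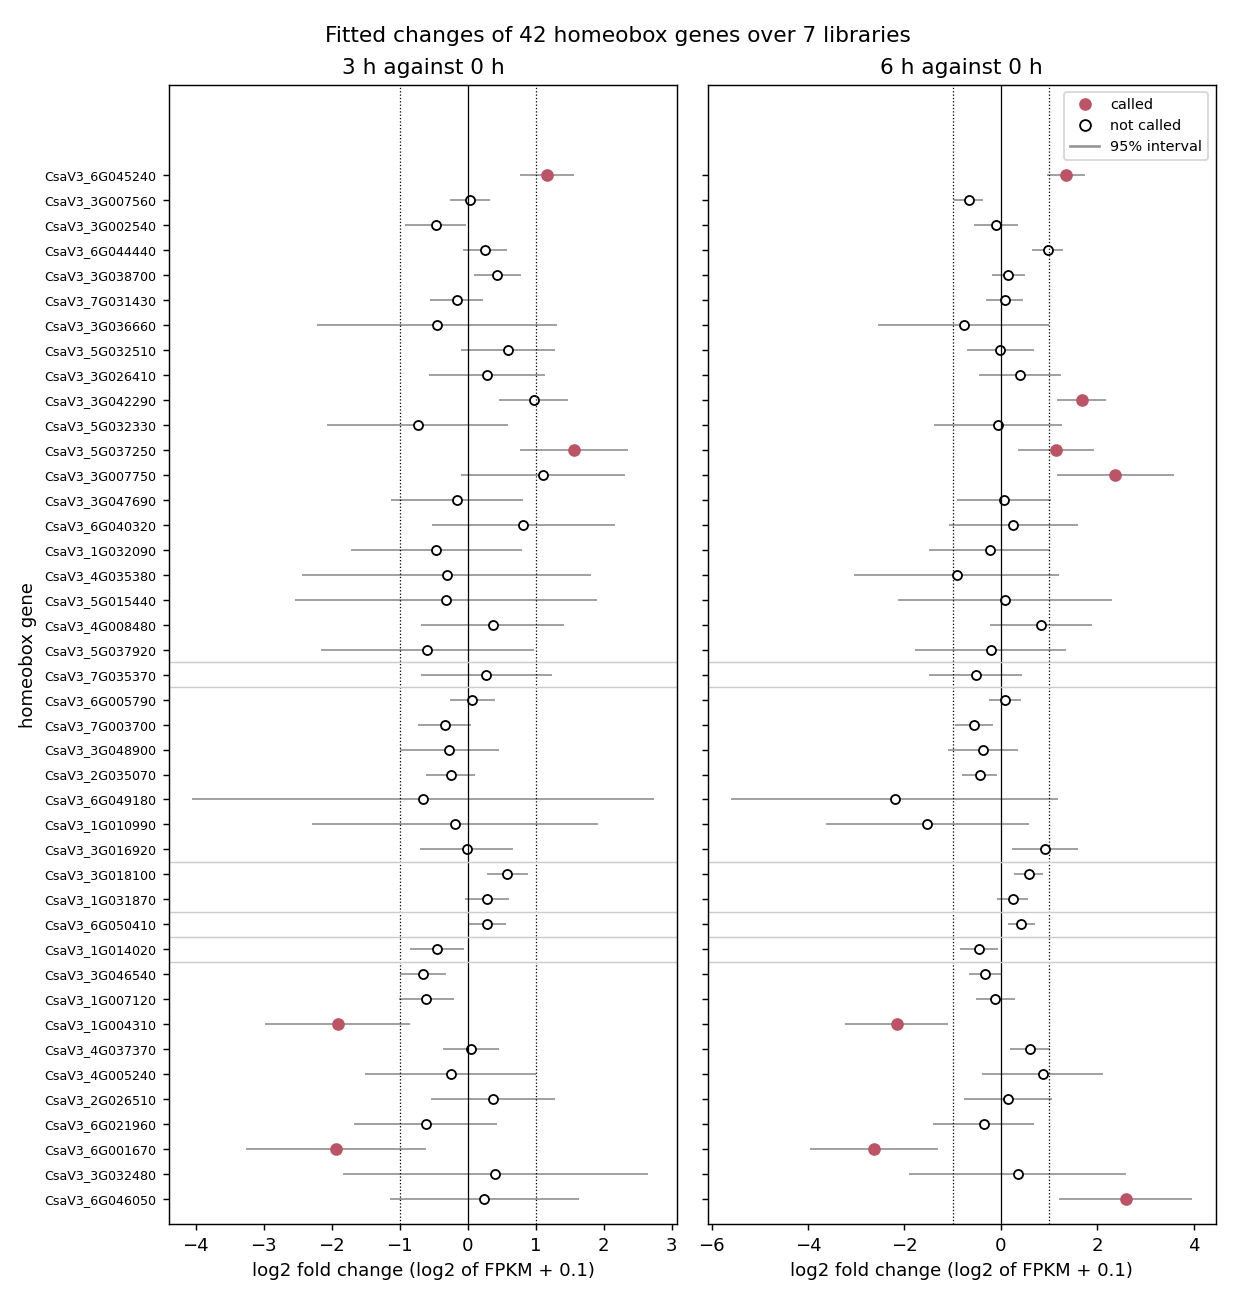
Log2 fold change of each of the 42 tested homeobox genes over the 7 libraries, HT3h against HT0h on the left and HT6h against HT0h on the right, with 95% intervals from limma; filled points are the called genes, dotted lines mark -1 and 1, and grey lines separate the domain types in the order of the heat map. The 4 called genes on the left and the 7 on the right stand clear of 0, most other points lie between the dotted lines, and the widest intervals belong to CsaV3_6G049180.

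Of the 20 tested HD-Zip I/II genes, 2 were called higher after 3 h, a share of 10% that equals the 10% of all genes, and 4 after 6 h (20%), against 12.2% of all genes. None was called lower at either time, where 8.29% and 10% of all genes were, but with 20 genes these shares rest on few calls. The median log2 fold change of the type was 0.15 after 3 h and 0.08 after 6 h over the 7 libraries. Over 9 libraries it was 0.03 after 3 h and -0.13 after 6 h, and again none was called lower. CsaV3_6G045240, the most abundant homeobox gene (chr6:26787699-26789026, plus strand, in the coordinates of the deposited tables), had 125, 134 and 128 FPKM in HT0h, 269 and 310 FPKM in HT3h_1 and HT3h_3, and 359 and 296 FPKM in HT6h_1 and HT6h_3. Every heated library was above every HT0h library, also HT3h_2 with 547 FPKM and HT6h_2 with 344 FPKM. It rose by a log2 fold change of 1.17 (SE 0.17, adjusted p = 0.0029, limma) after 3 h and 1.34 (SE 0.17, adjusted p = 0.00144) after 6 h. Both calls were made in all 23 alternative analyses.

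CsaV3_3G042290 (chr3:34379311-34383476, minus strand) had 3.46, 2.73 and 3.43 FPKM in HT0h, 6.88 and 5.84 FPKM in HT3h_1 and HT3h_3, and 9.11 and 11.9 FPKM in HT6h_1 and HT6h_3. The 3 groups did not overlap, and HT3h_2 with 8.61 FPKM and HT6h_2 with 16.5 FPKM also lay above HT0h. The gene rose after 6 h with a log2 fold change of 1.67 (SE 0.22, adjusted p = 0.00157, limma), a call made in all 23 alternatives. After 3 h the log2 fold change was 0.97 (SE 0.22, adjusted p = 0.0142), just under the threshold for size, and with all 9 libraries it was 1.11 (adjusted p = 0.0105) and was called. HT6h against HT3h, its log2 fold change of 0.70 (SE 0.24, adjusted p = 0.289, limma) did not pass.

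The other 2 rising genes of this type had wider spreads. CsaV3_5G037250 (chr5:29571581-29574391, plus strand) had 2.72, 3.08 and 1.64 FPKM in HT0h, 5.90 and 8.95 FPKM in HT3h_1 and HT3h_3, and 6.27 and 4.72 FPKM in HT6h_1 and HT6h_3. HT3h_2 and HT6h_2 were far higher, at 21.3 and 25.3 FPKM, and no heated library overlapped HT0h. It rose by a log2 fold change of 1.56 (SE 0.34, adjusted p = 0.0126, limma) after 3 h and 1.15 (SE 0.34, adjusted p = 0.0331) after 6 h. With all 9 libraries the 6 h value was larger, 1.88, but its SE was 0.65 and its adjusted p 0.0509, and the 6 h call was lost in 10 of 23 alternatives, those without HT0h_1, HT0h_3, HT6h_1 or HT6h_3 among them. The 3 h call was lost without HT3h_3.

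CsaV3_3G007750 (chr3:6786423-6788667, plus strand) had 2.83, 2.82 and 0.993 FPKM in HT0h, 5.46 and 3.61 FPKM in HT3h_1 and HT3h_3, and 7.67 and 15.2 FPKM in HT6h_1 and HT6h_3. All heated libraries lay above HT0h, HT3h_2 with 17.0 FPKM the highest and HT6h_2 with 3.26 FPKM the lowest. The log2 fold change after 6 h was 2.37 (SE 0.52, adjusted p = 0.0113, limma) over the 7 libraries and 1.81 (adjusted p = 0.0751) over all 9, so the call was lost with HT3h_2 and HT6h_2. Without HT6h_3 it was also lost, at 1.88. After 3 h the value was 1.11 (adjusted p = 0.142), which is not a call. The nearest member along the chromosome, at 96.1 kb, was CsaV3_3G007560, which was not called at either time.

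A further gene of this type, CsaV3_6G044440 (chr6:26295272-26296953, plus strand), stood at the threshold after 6 h. It had 9.10, 10.04 and 9.92 FPKM in HT0h, 10.97 and 12.3 FPKM in HT3h_1 and HT3h_3, and 18.3 and 19.9 FPKM in HT6h_1 and HT6h_3. HT3h_2 and HT6h_2 were higher again, at 24.8 and 26.6 FPKM. Its log2 fold change after 6 h was 0.97 (SE 0.14, adjusted p = 0.0022, limma) over 7 libraries and 1.13 (SE 0.29, adjusted p = 0.0164) over 9, where it was called.

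The pair with the HD-ZIP N terminus went without a call. CsaV3_3G007560 (chr3:6687287-6690357, plus strand) was the third most abundant member, with 40.0, 48.3 and 46.9 FPKM in HT0h, 45.8 and 46.4 FPKM in HT3h_1 and HT3h_3, and 27.8 and 28.6 FPKM in HT6h_1 and HT6h_3. The 2 HT6h libraries lay below all others of the 7, but HT6h_2 was at 43.4 FPKM, within the HT0h range, and HT3h_2 was at 25.7 FPKM. The log2 fold change after 6 h was -0.67 (SE 0.13, adjusted p = 0.00638, limma) over 7 libraries and -0.46 (SE 0.26, adjusted p = 0.194) over 9. CsaV3_3G002540, with a mean of 18.5 FPKM in HT0h leaves, passed at neither time.

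HD-Zip I/II genes were also among the members with the smallest fitted changes. CsaV3_7G031430 (chr7:19866731-19869254, minus strand) had 7.49, 8.24 and 7.88 FPKM in HT0h, 6.57 and 7.49 FPKM in HT3h_1 and HT3h_3, and 7.60 and 9.05 FPKM in HT6h_1 and HT6h_3. HT3h_2 was at 7.09 FPKM, and HT6h_2 was the lowest of the 9 libraries at 5.20 FPKM. Over the 7 libraries, the log2 fold change of this gene was -0.16 (95% interval -0.55 to 0.23) after 3 h. It was 0.08 (95% interval -0.31 to 0.47) after 6 h, so changes of 1 or more in either direction lie outside both intervals. CsaV3_3G047690 (chr3:38896045-38898470, minus strand), at a mean of 1.36 FPKM in HT0h leaves, had -0.15 (95% interval -1.12 to 0.82) and 0.06 (95% interval -0.90 to 1.03), intervals too wide to set a change of 1 aside. CsaV3_3G026410 (chosen after its values were seen) had 22.7 and 22.5 FPKM in HT3h_2 and HT6h_2 and between 3.14 and 8.43 FPKM in the other 7 libraries, and was called in neither set. Of the tested genes of the type, 6 averaged under 1 FPKM in HT0h leaves, and none of these was called. One of them, CsaV3_4G008480, lies within CsaV3_4G008470 on the opposite strand, a gene at 1025 to 1573 FPKM in HT0h, 196 to 601 FPKM in HT3h and 246 to 460 FPKM in HT6h.

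**Figure D3:**
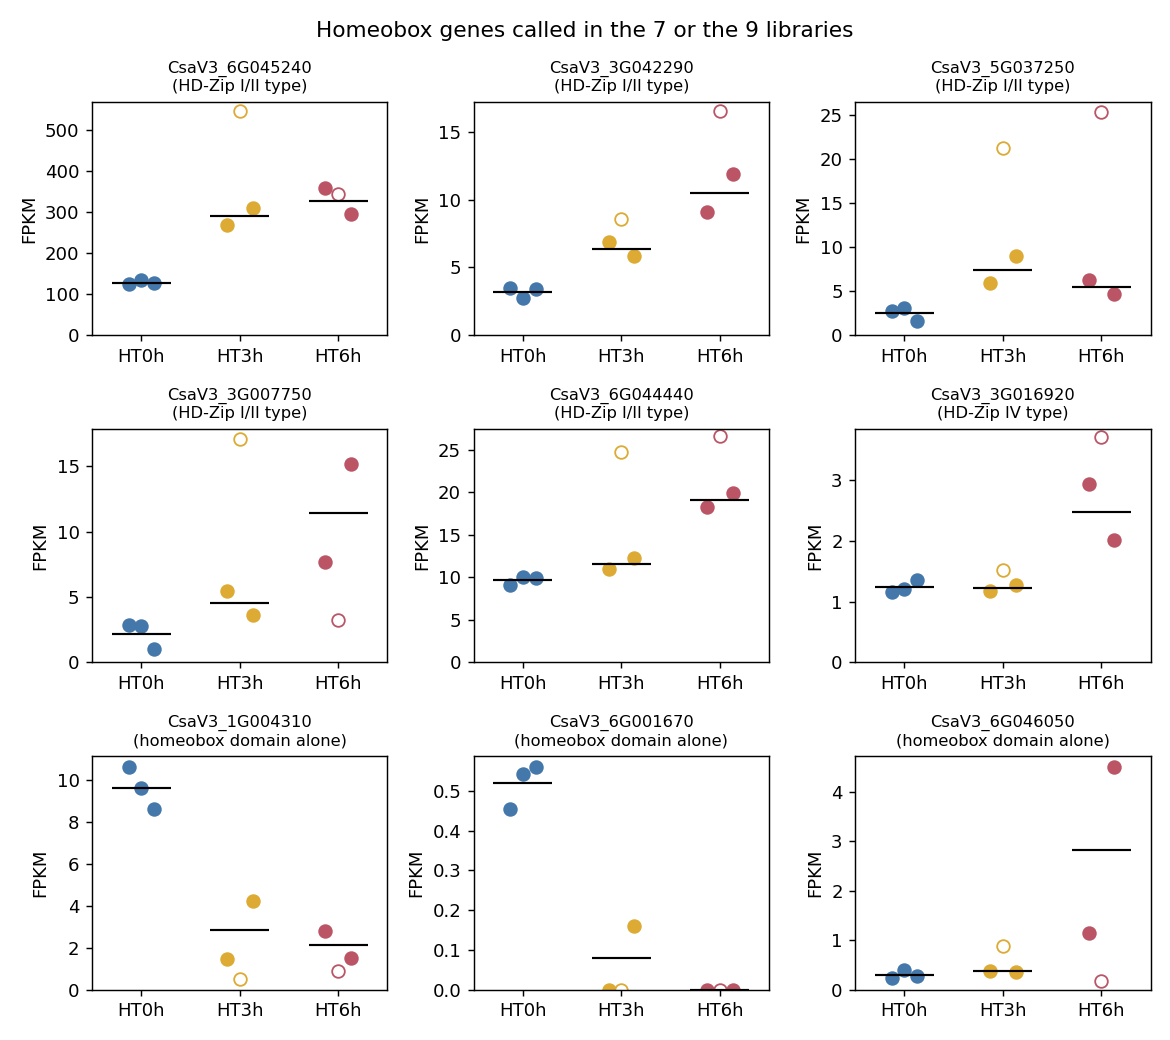
FPKM of the 9 homeobox genes called over the 7 or over the 9 libraries, by time at 42 °C; each point is 1 library, open points are HT3h_2 and HT6h_2, bars are means of the filled points (n = 3 for HT0h, n = 2 for HT3h and for HT6h), and each axis starts at 0. CsaV3_6G045240 lies at 125 to 134 FPKM in HT0h and at 269 to 547 FPKM in all heated libraries, while in CsaV3_6G046050 a single HT6h library at 4.51 FPKM stands above the rest.

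Among the genes with a homeobox domain alone, 2 of 10 tested members fell after 3 h (8.29% of all genes were called lower), and after 6 h the same 2 genes fell (10% of all genes) and 1 rose (12.2% of all genes). CsaV3_1G004310 (chr1:2700556-2703593, plus strand) had 10.7, 9.63 and 8.64 FPKM in HT0h, 1.45 and 4.22 FPKM in HT3h_1 and HT3h_3, and 2.79 and 1.53 FPKM in HT6h_1 and HT6h_3. HT3h_2 and HT6h_2 were lower still, at 0.502 and 0.896 FPKM, so that no heated library reached the HT0h range. The log2 fold change was -1.91 (SE 0.45, adjusted p = 0.018, limma) after 3 h and -2.16 (SE 0.45, adjusted p = 0.0098) after 6 h, and -2.61 (adjusted p = 0.0154) and -2.54 (adjusted p = 0.0162) with all 9 libraries. The 3 h call was lost without HT0h_1, HT0h_2 or HT3h_1 and the 6 h call without HT6h_3, with adjusted p up to 0.0712, and the 3 h call also with the replicate number as a block (adjusted p = 0.0732) or with no filter (adjusted p = 0.0664). Without HT3h_1 the 3 h value was -1.17, and without HT3h_3 it was -2.65.

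CsaV3_6G001670 (chr6:1116567-1117326, minus strand), the shortest gene with a homeobox domain alone at 591 bases, rested on few fragments. Its 17 fragments in the 3 HT0h libraries gave 0.454, 0.543 and 0.559 FPKM. HT3h_3 held 2 fragments (0.160 FPKM), and the other 5 heated libraries held 0. Over the 7 libraries the ratio of HT3h to HT0h was 0.159 (exact 95% interval 0.0179 to 0.671, counting error only), and the HT6h level was at least 4.28-fold lower than that of HT0h, taking 3 fragments over the HT6h group as the floor, or at least 6.64-fold lower over 9 libraries. The gene was called at both times (adjusted p = 0.0369 and 0.0108, limma), but the 3 h call was lost in 9 of 22 alternatives, those without any 1 of the HT0h libraries or without HT3h_1 among them, and the 6 h call with a pseudocount of 1. It lies wholly within CsaV3_6G001660 on the opposite strand, and whether the counting used strand is not stated, so reads of the pair cannot be told apart. CsaV3_6G001660 had 2.37, 3.03 and 3.41 FPKM in HT0h, 2.77 and 2.28 FPKM in HT3h_1 and HT3h_3, and 2.88 and 2.84 FPKM in HT6h_1 and HT6h_3, and was not called.

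CsaV3_6G046050 (chr6:27254198-27256020, plus strand) was the member that rose in this group. It had 0.227, 0.407 and 0.279 FPKM in HT0h, 0.384 and 0.359 FPKM in HT3h_1 and HT3h_3, and 1.14 and 4.51 FPKM in HT6h_1 and HT6h_3. HT6h_2, at 0.183 FPKM, was below all HT0h libraries. Its log2 fold change after 6 h was 2.59 (SE 0.59, adjusted p = 0.0132, limma) over the 7 libraries, but 1.56 (SE 0.87, adjusted p = 0.191) over all 9, and the call was also lost without HT6h_3, at 1.64. Without HT6h_1 the value was 3.54.

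CsaV3_3G046540 (chr3:37996471-38000337, minus strand), the second most abundant member, had 48.1, 39.7 and 51.2 FPKM in HT0h, 29.97 and 28.2 FPKM in HT3h_1 and HT3h_3, and 38.6 and 35.04 FPKM in HT6h_1 and HT6h_3. No heated library of the 7 reached the lowest HT0h library, nor did HT3h_2 at 20.02 FPKM and HT6h_2 at 29.5 FPKM. The change passed the adjusted p but not the size after 3 h, at -0.66 (SE 0.14, adjusted p = 0.0132, limma), and passed neither after 6 h, at -0.32 (SE 0.14, adjusted p = 0.117). CsaV3_1G007120 (-0.61, adjusted p = 0.0335) after 3 h and CsaV3_4G037370 (0.60, adjusted p = 0.0335) after 6 h, both chosen after their values were seen, likewise passed on p alone over the 7 libraries. Over 9 libraries they did not, at -0.94 (adjusted p = 0.129) and 0.35 (adjusted p = 0.384).

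None of the 8 tested HD-Zip III and IV genes was called over the 7 libraries at either time, where 18.3% and 22.3% of all genes were called. The most abundant, CsaV3_6G005790 (chr6:4976483-4982494, minus strand), was among the steadiest members over the 7 libraries. It had 40.4, 47.7 and 43.6 FPKM in HT0h, 41.6 and 50.8 FPKM in HT3h_1 and HT3h_3, and 47.9 and 45.3 FPKM in HT6h_1 and HT6h_3. In HT3h_2 and HT6h_2 it had 28.1 and 39.8 FPKM, below all HT0h libraries. Its log2 fold change was 0.07 (95% interval -0.26 to 0.40) after 3 h and 0.09 (95% interval -0.24 to 0.42) after 6 h, and -0.17 (95% interval -0.64 to 0.30) and 0.01 (95% interval -0.46 to 0.49) over 9 libraries. All 4 intervals exclude a change of 1 in either direction. CsaV3_7G003700 (chr7:2759169-2766022, plus strand) had 27.8, 37.2 and 35.4 FPKM in HT0h, 28.3 and 24.3 FPKM in HT3h_1 and HT3h_3, and 24.2 and 21.02 FPKM in HT6h_1 and HT6h_3. In HT3h_2 and HT6h_2 it had 21.2 and 14.7 FPKM. After 6 h its log2 fold change of -0.56 (SE 0.17, adjusted p = 0.0361, limma) passed on p but not on size, and so did -0.76 (adjusted p = 0.0223) over 9 libraries.

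In the opposite direction, CsaV3_3G016920 (chr3:12676618-12682846, plus strand) of the HD-Zip IV type had 1.16, 1.21 and 1.37 FPKM in HT0h, 1.18 and 1.28 FPKM in HT3h_1 and HT3h_3, and 2.95 and 2.02 FPKM in HT6h_1 and HT6h_3. HT3h_2 was at 1.52 FPKM and HT6h_2 at 3.72 FPKM, so all 3 HT6h libraries lay above the other 6. The log2 fold change after 6 h was 0.92 (SE 0.29, adjusted p = 0.0441, limma) over 7 libraries, and 1.12 (SE 0.29, adjusted p = 0.0175) over 9, where it was the one HD-Zip III or IV gene called.

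The single HD-Zip III gene, CsaV3_7G035370 (chr7:22353569-22361965, minus strand), varied more between heated libraries than between times. It had 18.4, 19.4 and 19.8 FPKM in HT0h, 16.0, 6.58 and 33.5 FPKM in HT3h_1 to HT3h_3, and 8.64, 6.76 and 20.4 FPKM in HT6h_1 to HT6h_3. The HT0h libraries lay within the range of each heated group, and the gene passed at neither time, with -0.52 (95% interval -1.48 to 0.44) after 6 h. Its end overlaps that of CsaV3_7G035350 on the opposite strand, which had 2.46 to 5.49 FPKM in HT0h, 5.55 to 15.3 FPKM in HT3h and 4.31 to 15.2 FPKM in HT6h and was not called, and with strand not stated the reads in the overlap cannot be assigned.

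Most HD-Zip III and IV genes, and most genes with a homeobox domain alone, were lowest in HT3h_2 among the HT3h libraries and in HT6h_2 among the HT6h libraries, which is described here without a test because it was noticed in these data. The summed level of the HD-Zip III and IV types was 135, 156 and 142 FPKM in HT0h_1 to HT0h_3, 115, 71.9 and 165 FPKM in HT3h_1 to HT3h_3, and 112, 79.0 and 127 FPKM in HT6h_1 to HT6h_3. In each heated group, HT3h_2 or HT6h_2 was lowest and HT3h_3 or HT6h_3 highest. Of the 8 tested genes, 6 were lowest in both HT3h_2 and HT6h_2, against 18 of all 42 tested members and 20.9% of all genes. The genes with a homeobox domain alone had it too, in 6 of 10 tested genes, with summed levels of 84.7, 73.0 and 82.9 FPKM in HT0h_1 to HT0h_3, 50.7, 32.1 and 55.1 FPKM in HT3h_1 to HT3h_3, and 68.8, 43.2 and 73.6 FPKM in HT6h_1 to HT6h_3. An example among the single genes is CsaV3_1G010990 of the HD-Zip IV type, with 2.29, 2.01 and 1.02 FPKM in HT0h, 0.504, 0.155 and 3.96 FPKM in HT3h_1 to HT3h_3 and 0.224, 0.0447 and 1.09 FPKM in HT6h_1 to HT6h_3. CsaV3_6G049180 of the same type already varied among HT0h libraries, with 4.63, 1.89 and 0.435 FPKM, and its log2 fold change after 6 h was -2.21 (95% interval -5.60 to 1.19).

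Sums of the epidermis and dividing cell lists had the same order, while those of the other marker lists did not. Chlorophyll a/b binding protein genes summed to 66871, 52959 and 22769 FPKM in HT3h_1 to HT3h_3, and to 19491, 24189 and 10556 FPKM in HT6h_1 to HT6h_3. The Rubisco small chain gene was also lowest in HT3h_3 and in HT6h_3. Of the 20 tested chlorophyll a/b binding protein genes, 0 were called higher at either time. After 3 h 1 of them was called lower, against 8.29% of all genes, and after 6 h 9 were, against 10% of all genes. The epidermis list (genes with a Wax2 C-terminal or FAE1/CUT1 domain of wax synthesis, 19 genes, none at 0 in all libraries) summed to 445 to 495 FPKM in HT0h, 274, 168 and 311 FPKM in HT3h_1 to HT3h_3, and 277, 163 and 340 FPKM in HT6h_1 to HT6h_3. Of its 18 tested genes, 1 was called higher and 3 lower after 3 h, and 2 higher and 3 lower after 6 h. Of all genes, 10% were called higher and 8.29% lower after 3 h, and 12.2% higher and 10% lower after 6 h. The dividing cell list (cyclins and MCM helicase subunits, 37 genes, none at 0 in all libraries) summed to 1017 to 1087 FPKM in HT0h, 624, 484 and 726 FPKM in HT3h_1 to HT3h_3, and 549, 519 and 598 FPKM in HT6h_1 to HT6h_3. Of its 37 tested genes, 2 were called higher and 10 lower after 3 h, and 2 higher and 15 lower after 6 h, beside the same shares of all genes. In these bulk leaves, fewer cells of a type and less RNA per cell cannot be told apart, and the part of either list in the homeobox values was not tested. A list chosen for the shoot apex held 9 genes with a KNOX1 domain, 4 of them tested and 3 at 0 in all libraries. It summed to 114 to 127 FPKM in HT0h, 89.8, 157 and 84.6 FPKM in HT3h_1 to HT3h_3, and 99.3, 128 and 107 FPKM in HT6h_1 to HT6h_3. Whether this sum came from apex cells was not tested. Of the 4 tested genes, 0 were called, against 18.3% of all genes after 3 h and 22.3% after 6 h. These 4 genes are too few to compare with those shares.

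The summed level of the HD-Zip I/II type had another pattern. It was 252, 259 and 244 FPKM in HT0h_1 to HT0h_3, 395, 735 and 458 FPKM in HT3h_1 to HT3h_3, and 488, 517 and 436 FPKM in HT6h_1 to HT6h_3. All 6 heated libraries lay above HT0h, and most of the gap came from CsaV3_6G045240. Without that gene the sum was 127, 125 and 117 FPKM in HT0h, 126, 188 and 148 FPKM in HT3h_1 to HT3h_3, and 129, 173 and 140 FPKM in HT6h_1 to HT6h_3, where HT3h_1 fell within the HT0h range. HT3h_2 was the highest HT3h library for 8 of 20 tested genes of the type, close to the 36.6% of all genes for which this held.

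**Figure D4:**
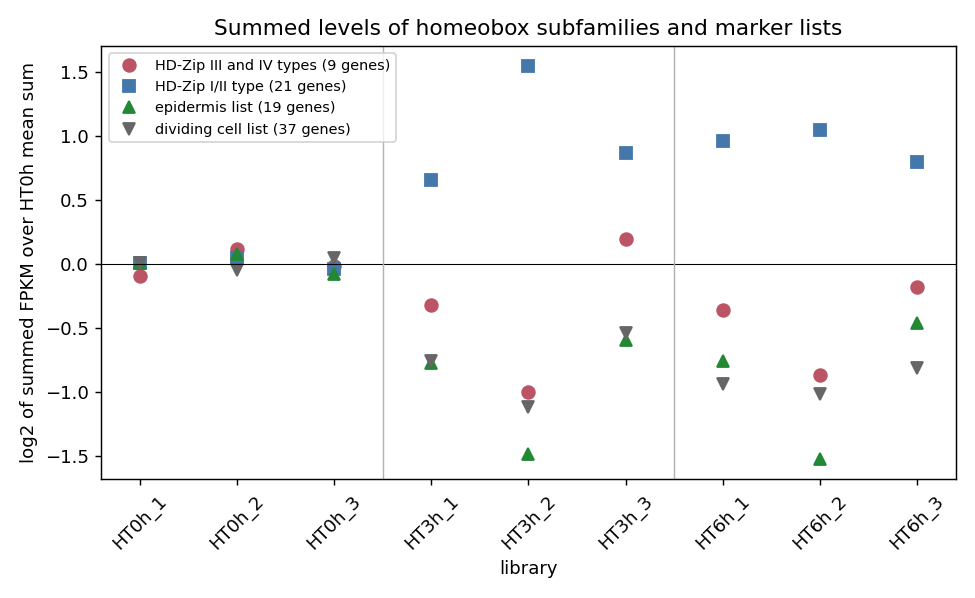
Summed FPKM of the HD-Zip III and IV types, the HD-Zip I/II type, the epidermis list and the dividing cell list in each of the 9 libraries, as log2 of the sum over the mean sum of the 3 HT0h libraries; each point is 1 library. HT3h_2 and HT6h_2 are lowest in their groups for the HD-Zip III and IV types (71.9 and 79.0 FPKM) and for both marker lists, and highest for the HD-Zip I/II type (735 and 517 FPKM).

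The members with chromatin-type domains were not called. PHD fingers read histone tails in other proteins, and DDT domains occur in subunits of chromatin remodelling complexes. Of the 2 PHD genes, CsaV3_3G018100 had 12.0, 11.7 and 12.8 FPKM in HT0h, 19.2 and 17.3 FPKM in HT3h_1 and HT3h_3, and 17.5 and 18.8 FPKM in HT6h_1 and HT6h_3. Every heated library lay above HT0h, also HT3h_2 at 16.8 FPKM and HT6h_2 at 16.3 FPKM. Its log2 fold change was 0.58 (SE 0.13, adjusted p = 0.0138, limma) after 3 h and 0.57 (SE 0.13, adjusted p = 0.0124) after 6 h, past the p threshold and under the size threshold, with 95% intervals of 0.28 to 0.88 and 0.27 to 0.88. The other PHD gene, CsaV3_1G031870, passed at neither time, with 0.29 after 3 h (adjusted p = 0.151, limma) and 0.25 after 6 h (adjusted p = 0.193). The DDT gene CsaV3_6G050410 had 0.29 (95% interval 0.01 to 0.57, adjusted p = 0.104, limma) after 3 h. After 6 h it had 0.42 (95% interval 0.14 to 0.70, adjusted p = 0.0287), past the p threshold only. The gene with the L19 domain, CsaV3_1G014020, had -0.45 (95% interval -0.84 to -0.05) at both times (adjusted p = 0.0801 and 0.0745). Over 9 libraries the L19 gene passed on p alone at both times (adjusted p = 0.0356 and 0.043), and the DDT gene at neither (adjusted p = 0.0622 and 0.0549). The HT0h libraries of the L19 gene lay at 25.0 to 26.2 FPKM and its heated libraries at 15.1 to 22.0 FPKM.

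Other homeodomain genes outside the 48 were counted for comparison. The TALE class, whose homeodomain has an added loop and which in Arabidopsis holds the KNOX and BELL proteins of the shoot apex, gave 19 genes, 14 of them tested. None of these was called after 3 h by limma, against 18.3% of all genes, with 3 at an unadjusted p under 0.05, against 44.1% of all genes, and 1 (7.14%) was called after 6 h, against 22.3%. That gene, CsaV3_3G038000, had 11.4, 11.2 and 10.3 FPKM in HT0h, 10.9 and 9.29 FPKM in HT3h_1 and HT3h_3, and 29.6 and 22.5 FPKM in HT6h_1 and HT6h_3, with a log2 fold change after 6 h of 1.23 (SE 0.17, adjusted p = 0.00189, limma). HT3h_2 had 33.0 FPKM and HT6h_2 36.9 FPKM, so HT3h_2 lay within the range of HT6h.

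Of 10 zinc finger homeodomain (ZF-HD) genes, 9 were tested, 3 were called after 3 h (33.3%; 2 higher, 1 lower), against 18.3% of all genes, and 1 after 6 h (11.1%; lower), against 22.3%. CsaV3_1G007410 had 29.9, 38.2 and 38.5 FPKM in HT0h, 11.2 and 9.52 FPKM in HT3h_1 and HT3h_3, and 10.9 and 14.6 FPKM in HT6h_1 and HT6h_3, and it fell at both times, by 1.76 and 1.47 on the log2 scale (SE 0.19 for each, adjusted p = 0.00101 and 0.00154, limma). CsaV3_3G041500 rose after 3 h, to 18.2 and 16.4 FPKM in HT3h_1 and HT3h_3, against 6.14, 7.498 and 6.22 FPKM in HT0h (log2 fold change 1.38, SE 0.17, adjusted p = 0.00177). CsaV3_5G038020 rose as well, to 51.4 and 45.02 FPKM in HT3h_1 and HT3h_3, against 19.1, 24.7 and 22.4 FPKM in HT0h (log2 fold change 1.13, SE 0.16, adjusted p = 0.0029). Over 9 libraries, 2 ZF-HD genes were called at each time, and the 3 h value of CsaV3_5G038020 was 0.93.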

How the data were processed

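Leaf RNA was measured in 9 libraries. The authors deposited 1 table for each library, holding the FPKM, length, position and domain description of every gene. The submitters' processing notes name CASAVA 1.8, HISAT2 2.0.5, StringTie 1.3.3b and featureCounts 1.5.0-p3 without roles, and the treatment of reads shared between similar genes was not given in the sources used here. FPKM times gene length fell on whole multiples of 1 step in 100% of values (within 0.02 of a fragment), which gave fragments per gene. The depth term carries size factors of 0.901 to 1.15 set over all 9 libraries. Libraries of a group differed beyond sampling noise (chi-square per degree of freedom 19.5 to 177). HT3h_2 and HT6h_2 entered these factors and so the deposited values of the other libraries.

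Genes with a mean of 0.1 FPKM or more were tested in limma 3.58.1 (R 4.3.3) on log2(FPKM + 0.1), in 1 model of the 3 times with no covariates and with a variance trend on the mean; the 7 libraries leave 4 residual degrees of freedom. The test was tried on simulated data. A RefSeq gene table (Cucumber_9930_V3) matched 0 identifiers; all 48 members overlapped one of its genes by position, none with a name, and no sequences were used here. Genes named are those called over 7 libraries, the 5 most abundant in HT0h, the 3 of 1 FPKM or more with the smallest change, members within 50 kb of another, and those whose call differed between 7 and 9 libraries; others are marked or belong to domain types with few members. The members, lists and tests were chosen with earlier results of these data known. Alternatives were all 9 libraries, 8 libraries, array weights, the replicate number as a block, other pseudocounts and filters, only the groups compared, scaling per counted fragment, quantile normalization, no trend, voom on fragments, and leaving out each library; the 8-library fits and voom on 9 libraries were chosen after seeing the data.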

Additional observations from a re-analysis of the deposited data

How the results depend on the processing

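After 3 h, 2 members were called with the replicate number as a block over 7 libraries, and 2 to 4 when 1 library was left out; after 6 h, leaving out 1 library gave 3 to 8 members. The share called stayed below that of all genes in 23 of 23 alternatives after 3 h and in 22 of 23 after 6 h. Without HT6h_1 it was 19.5% after 6 h, against 17.1%. The alternatives refit the same libraries and members, so this tally is not independent evidence of a lower share. HT6h against HT3h, array weights over 9 libraries called 1 member (2.38%), against 2.8% of all genes. Leaving out 1 HT0h library called 0, against at most 0.067% of all genes. Other alternatives kept these counts within 1.5 times. Deviations of the libraries from their group means were compared between groups. HT0h libraries had correlations of -0.23 to 0.03 with heated libraries of the same number, and no pairing by number was seen there. How the replicates were numbered is not stated, and 3 libraries per group are too few to settle whether they were paired. Between HT3h and HT6h, the correlation was 0.31 for HT3h_2 with HT6h_2 and 0.48 for HT3h_3 with HT6h_3. It was -0.39 for HT3h_2 with HT6h_3 and -0.37 for HT3h_3 with HT6h_2. HT3h_1 had 0.039 with HT6h_1 and 0.064 with HT6h_2. The block called 6 members after 6 h over 7 libraries, and 5 after 3 h and 7 after 6 h over 9.

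For the 15 named genes at 2 times (30 log2 fold changes), 593 alternative values kept direction and call, 38 lost the call, 22 gained it and 35 changed sign, all of them in values that were not called; the cause was not tested. After 3 h, CsaV3_3G007560 was -0.24 with all 9 libraries (also with the block, with HT3h_2 added, and with voom), -0.0677 with array weights and -0.0469 to 0.0902 with 1 library left out. CsaV3_3G016920 was 0.0791 with 9 libraries (also with the block or HT3h_2 added), 0.0884 with voom over 9, 0.0478 per counted fragment and -0.0697 to 0.0456 with 1 left out. CsaV3_6G005790 was -0.17 with 9 libraries (also with the block or HT3h_2 added), -0.16 with voom over 9, -0.11 with array weights and -0.0744 to 0.21 with 1 left out. CsaV3_3G047690 was -0.63 to 0.32 with 1 left out. After 6 h, CsaV3_3G047690 was -0.16 with 9 libraries (also with the block or HT6h_2 added), -0.18 with voom over 9, -0.15 with the block over 7, -0.17 with quantile normalization and -0.15 to 0.28 with 1 left out. CsaV3_7G031430 was -0.14 with 9 libraries (also with the block or HT6h_2 added), -0.15 with voom over 9, -0.0489 with array weights and -0.0488 to 0.20 with 1 left out. CsaV3_6G001670 could not be tested at a mean of 1 FPKM or more. A lone library left in a group is assumed to vary like the other groups, and counting error limits the members under 1 FPKM.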
